A study of Rattus norvegicus with 6 samples.

Results

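The 4 probes described here measured both arms of the miR-143 and miR-145 hairpins in rat heart, namely rno-miR-143-3p, rno-miR-143-5p, rno-miR-145-3p and rno-miR-145-5p. They were taken by name, as every array probe with the stem rno-miR-143 or rno-miR-145, out of 761 rat miRNAs on the array, and 3 of the 4 were bright enough to be among the 282 miRNAs tested. Hearts came from adult male Sprague Dawley rats, of which 3 were controls (numbered 9, 10 and 11) and 3 had chronic colitis (13, 14 and 16). Colitis was induced with dextran sulfate sodium (DSS), a polymer that injures the lining of the colon, given at 3% over 4 cycles of 5 days with intervals of 9 days on normal water. The labels say of the control rats only that they were controls, and which part of the heart was taken is not given in the sources used here. Each heart was measured on 1 array, so the spread between arrays holds both the animals and the assay. The comparison asks how the hearts of rats with colitis differed in miRNA content from those of control rats.

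MicroRNAs are short RNAs that pair with messenger RNAs, mostly through bases 2 to 8 (the seed), and lower their stability or translation. Each is cut from a hairpin precursor whose 2 strands give the 5p and 3p arms, and usually one arm is far more abundant than the other. miR-143 and miR-145 are neighbouring hairpins made from a shared primary transcript. In vessels they are abundant in smooth muscle cells, where serum response factor and myocardin drive them and where they favour the contractile over the proliferative state. In heart tissue they come largely from vessel walls and other mesenchymal cells. In bulk tissue such as this, fewer cells of a type and less RNA per cell cannot be told apart.

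The mature sequences are shown because they define what each probe measured, and because both hairpins give different seeds despite their shared transcript. They are RefSeq records on the GRCr8 build, 5′ to 3′, with the seed in capitals, and all 4 were identical to the array's target sequences.
rno-miR-145-5p: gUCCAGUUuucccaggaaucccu
rno-miR-145-3p: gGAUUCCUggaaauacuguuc
rno-miR-143-3p: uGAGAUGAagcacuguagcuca
rno-miR-143-5p: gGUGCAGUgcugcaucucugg
None of these seeds was carried by another of the 761 array targets, or by another of the 693 mature rat miRNAs in the RefSeq table. The nearest other target differed from miR-145-5p by 9 edits (bases changed, added or removed), from miR-143-3p by 8, from miR-143-5p by 7 and from miR-145-3p by 6. The array therefore held no close relative of any member by sequence.

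The hairpins are printed to show where each arm lies, with the mature arms in capitals.
Mir145: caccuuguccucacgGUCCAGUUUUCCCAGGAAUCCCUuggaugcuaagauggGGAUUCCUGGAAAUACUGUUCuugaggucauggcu
Mir143: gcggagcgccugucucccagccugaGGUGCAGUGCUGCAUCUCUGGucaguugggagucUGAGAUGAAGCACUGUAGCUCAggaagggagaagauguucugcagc
The Mir145 hairpin of 88 bases lies on the minus strand at chr18:57369983-57370070 (GRCr8), and the Mir143 hairpin of 105 bases on the same strand at chr18:57371349-57371453. A gap of 1278 bases separates them. Both fall inside the annotated span of Carmn (also named Mir143hg), a long noncoding RNA gene at chr18:57368191-57389112. Whether they lie in an exon or an intron of Carmn was not determined here.

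Both arms of miR-145 fell in the hearts of rats with colitis. miR-145-5p fell to 50.8% of its control level and miR-145-3p to 30.4%. miR-143-3p stood at 72.1% of its control level and did not pass the test, and miR-143-5p was not detected in any heart. So 2 of the 3 tested members passed in the lower direction and 0 in the higher one, on an array where 28.4% of the 282 tested miRNAs passed in the lower direction and 20.9% in the higher one. Values are log2 of the background-corrected signal after LOWESS normalization between arrays, a difference of 1 is a doubling, and a miRNA passed at an adjusted p under 0.05 (limma, Benjamini-Hochberg over the 282).

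**Figure D1:**
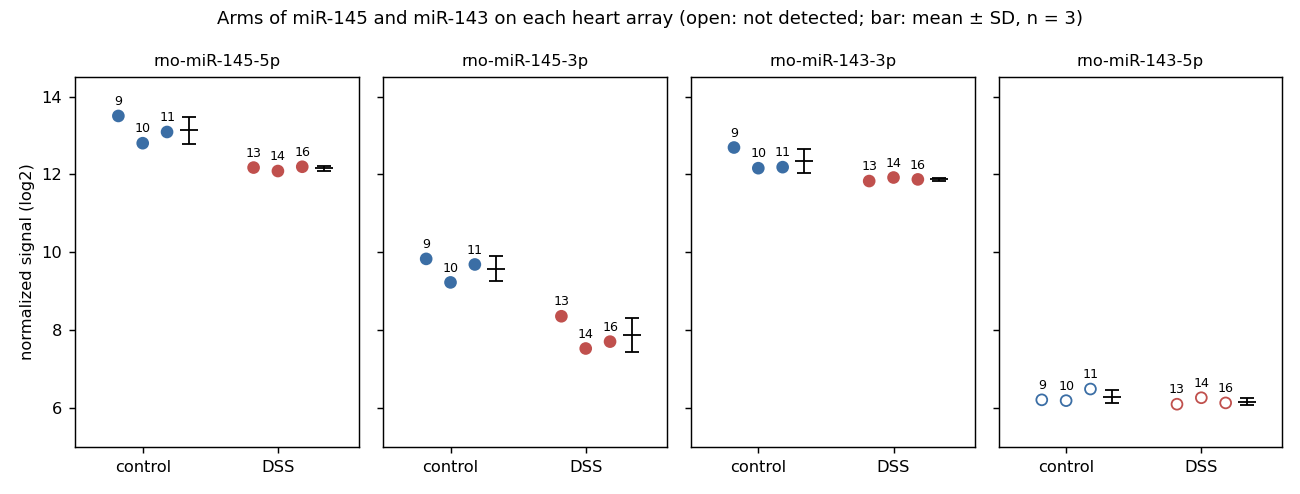
Normalized signal (log2) of the 4 members on each of the 6 heart arrays, with animal numbers; bars give mean ± SD (n = 3) and open points mark arrays where the probe was not detected. Every DSS value of miR-145-5p, miR-145-3p and miR-143-3p lies under every control value, while miR-143-5p lies near 6 on all arrays.

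miR-145-5p, the main arm of its hairpin, is known to target KLF4 and KLF5, transcription factors that repress the contractile program of smooth muscle. Its normalized log2 signal was 13.50, 12.80 and 13.09 in control hearts 9, 10 and 11, and 12.18, 12.09 and 12.20 in DSS hearts 13, 14 and 16. On this scale the DSS hearts lay closer together than the control hearts did, and under all of them. Without normalization between arrays the DSS hearts lay further apart than the control hearts. The unnormalized values were 12.81, 11.50 and 11.90 in DSS and 13.51, 13.14 and 13.53 in control hearts. The group means were 13.13 ± 0.35 in control and 12.15 ± 0.06 in DSS hearts (SD, n = 3 each), a difference of -0.98 on the log2 scale (SE 0.22, 95% interval -1.50 to -0.45, limma adjusted p = 0.0170). The authors' own processed signals, which were not used for that test, were 10425, 8601 and 9659 in control and 5796, 4059 and 4922 in DSS hearts, again without overlap.

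miR-145-3p, the lesser arm of the same hairpin, was dimmer on every array. Its normalized log2 signal was 9.83, 9.23 and 9.69 in control hearts 9, 10 and 11, and 8.36, 7.53 and 7.70 in DSS hearts 13, 14 and 16. DSS heart 13 was the highest of the DSS hearts, and still under the lowest control heart. Means were 9.58 ± 0.32 and 7.86 ± 0.44 (SD, n = 3 each), a difference of -1.72 (SE 0.28, 95% interval -2.40 to -1.04, limma adjusted p = 0.0151), which ranked 6 by p among the 282 miRNAs. The authors' processed signals were 1086, 595 and 817 in control and 274, 80 and 125 in DSS hearts. On a linear scale the fold was thus larger in the authors' values. No offset of 50 had been added to those values, and the reason for the larger fold was not tested. Both arms passed when any heart but DSS heart 16 was left out, and without DSS heart 16 miR-145-3p differed by -1.64 and miR-145-5p by slightly more than with it, each with a limma adjusted p of 0.0614, in a fit where 0 miRNAs passed over the whole array and 129 had an unadjusted p under 0.05.

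miR-143-3p, the main arm of its hairpin and a regulator of ELK1, an activator of smooth muscle proliferation, was dimmer than miR-145-5p on every array. Its normalized log2 signal was 12.69, 12.16 and 12.19 in control hearts 9, 10 and 11, and 11.83, 11.92 and 11.87 in DSS hearts 13, 14 and 16. No DSS heart reached the lowest control heart, but control hearts 10 and 11 were closer to the DSS hearts than to control heart 9. Means were 12.35 ± 0.30 and 11.87 ± 0.05 (SD, n = 3 each), and the difference of -0.47 (SE 0.20, 95% interval -0.96 to 0.01) missed the threshold with a limma adjusted p of 0.0910. Groups did not overlap for 3 of the 3 tested members, and for 34.8% of all tested miRNAs every DSS value lay under every control value. The interval for miR-143-3p reached from close to no change to a fall of 0.96. The authors' processed signals were 6290, 5408 and 5067 in control hearts 9, 10 and 11. In DSS hearts 13, 14 and 16 they were 4378, 3429 and 3891, again without overlap. On the log2 scale these values differed by -0.52 and did not pass either (limma adjusted p = 0.138). The paper lists miR-143-3p as significantly decreased, as it does both miR-145 arms. Its threshold was p under 0.05, and it describes no adjustment over the miRNAs tested.

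miR-143-5p, the lesser arm of miR-143, stayed under the detection limit on all 6 arrays. Its median spot brightness above background was 3.16, 18.1 and 6.50 units in control hearts 9, 10 and 11 against limits of 20.01, 58.6 and 43.9. In DSS hearts 13, 14 and 16 it was 2.52, 20.9 and 6.16 against limits of 20.3, 59.3 and 52.4. The limit was 3 SD of the empty spots on that array, so these values bound the signal and give no fold.

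Depth, the number of reads, has no counterpart on an array, and the precision rests on 3 hearts a group and 4 spots a probe. The 4 spots of a detected member varied by 2.30% to 14.3% (coefficient of variation of brightness on 1 array), and the brightest member spot, of miR-145-5p at 13435 units, was below the brightest spots of the arrays, at 48608 to 59496. Background was 35.4 to 95.4 units and the number of miRNAs detected 223 to 365. The heart label was checked against muscle miRNAs: miR-1-3p, miR-133a-3p, miR-133b-3p and miR-499-5p were detected on all 6 arrays, miR-208a-3p on 1 and miR-208b-3p on 0.

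The scale between arrays mattered for these differences. Before normalization, 11 spike-in probes lay between 10.69 and 10.94 (log2) on control arrays and between 9.44 and 10.49 on DSS arrays, a mean difference of -0.95. The 6 probes for 5S rRNA lay at 13.23 to 13.56 on control and 12.86 to 13.14 on DSS arrays, a difference of -0.42. Unnormalized miR-145-5p was 13.51, 13.14 and 13.53 in control hearts and 12.81, 11.50 and 11.90 in DSS hearts, still without overlap. Unnormalized miR-143-3p was 12.67, 12.42 and 12.61 in control hearts, and 12.47, 11.37 and 11.60 in DSS hearts, so DSS heart 13 fell among the controls. The same held for miR-145-3p, at 9.40, 8.99 and 9.92 in control and 9.03, 7.40 and 7.60 in DSS hearts.

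When arrays were scaled to the spike-in probes, the difference of miR-145-5p was -0.38 (limma adjusted p = 0.333), that of miR-145-3p -0.47 (0.274) and that of miR-143-3p turned to 0.19 (0.618). Under that scaling the median tested miRNA stood 1.31 higher in DSS hearts, against -0.06 after LOWESS. Scaled to 5S rRNA, with a median of 0.78, the differences were -0.91 for miR-145-5p (adjusted p = 0.0660), -0.998 for miR-145-3p (0.0958) and -0.33 for miR-143-3p. Read against the median tested miRNA of the same setting, all 3 members were lower in each of the 27 settings run, by 0.72 to 1.69 for miR-145-5p, 1.52 to 2.47 for miR-145-3p and 0.24 to 1.11 for miR-143-3p. A factor that scales a whole array moves the members and the median alike, so this distance is the same by construction without normalization and under spike-in, 5S and both percentile scalings. Settings of filter or detection limit move only the median, and the alternative tests apart from array weights move neither. The 27 settings are therefore not separate checks.

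**Figure D2:**
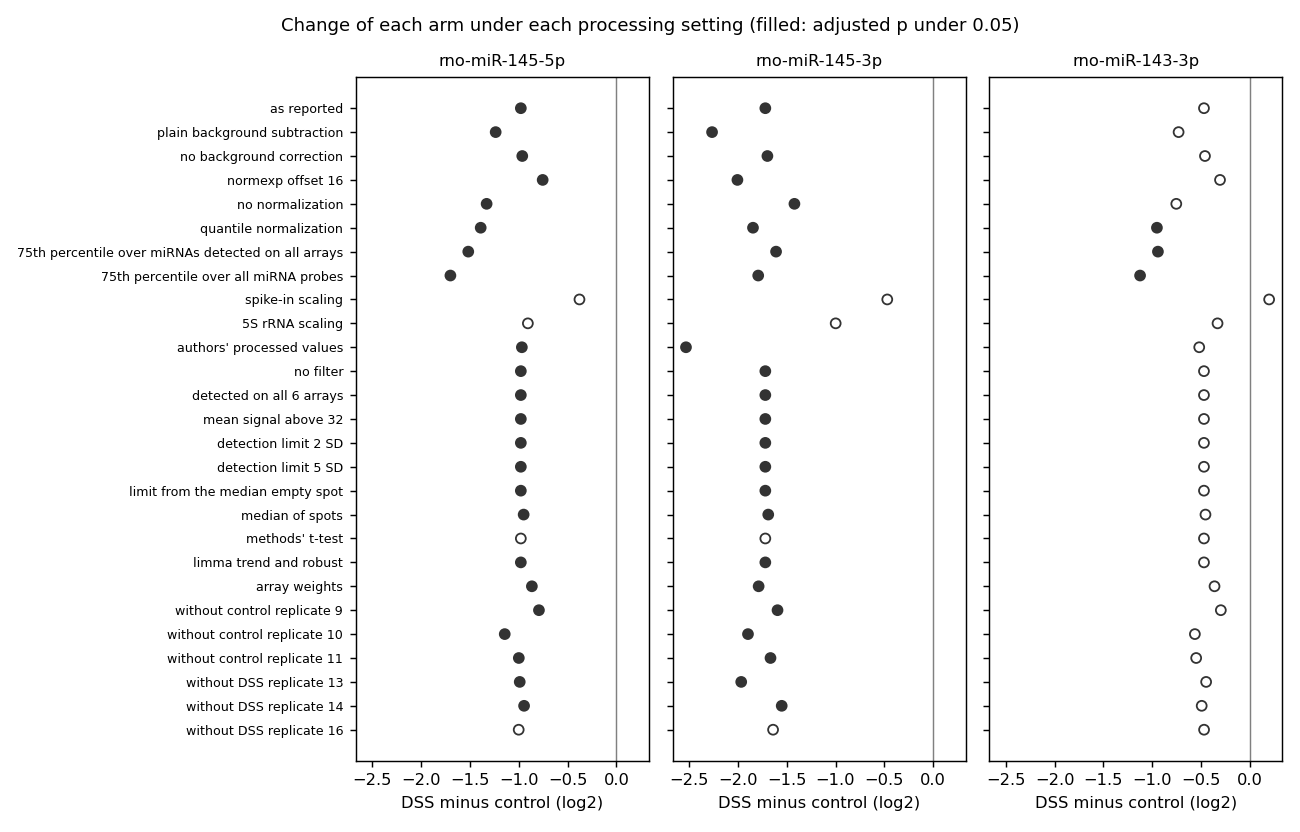
Difference between DSS and control hearts (log2) for the 3 tested members as reported and under 26 alternative settings; filled points have an adjusted p under 0.05. Both miR-145 arms stay left of 0 in every setting, and miR-143-3p crosses it only under spike-in scaling. Settings that change only the filter, the detection limit or the test, apart from array weights, keep the reported difference by construction.

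Differences between members on the same array are free of any factor that scales a whole array. The log2 signal of miR-143-3p minus that of miR-145-5p, across the main arms of both hairpins, was -0.81, -0.64 and -0.90 in control hearts 9, 10 and 11. In DSS hearts 13, 14 and 16 it was -0.35, -0.17 and -0.32. Every DSS heart thus held more miR-143-3p relative to miR-145-5p than any control heart, with a shift of 0.51 (exact permutation test, two-sided, p = 0.1, the smallest that 3 against 3 arrays can give, and 0.1 after Benjamini-Hochberg over 3 pairs). Without normalization between arrays the same values were -0.84, -0.72 and -0.93 in control and -0.33, -0.14 and -0.30 in DSS hearts, a shift of 0.57. The shift was 0.44 to 0.58 over all 26 alternatives, and the range was wider for the other pairs. Alternatives of filter, detection limit and test cannot move it, and whole-array scalings give the unnormalized value by construction. The test cannot pass the threshold in a design of this size. Probes of different sequence need not respond alike to the same amount of RNA, so these are differences between groups and not ratios of molecules.

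The other pairs also separated the groups after LOWESS. The difference between miR-143-3p and miR-145-3p rose from 2.77 ± 0.23 in control to 4.01 ± 0.48 in DSS hearts (SD, n = 3 each), a shift of 1.25 (exact permutation p = 0.1). Without normalization that shift was 0.67. It was thus more dependent on the setting than the shift between the main arms.

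Within the miR-145 hairpin, the 5p arm stood above the 3p arm by 3.67, 3.58 and 3.40 on the log2 scale in control hearts 9, 10 and 11. In DSS hearts 13, 14 and 16 the distance was 3.82, 4.56 and 4.49. No DSS heart lay within the control range, although DSS heart 13 was close to it. The distance widened from 3.55 ± 0.14 to 4.29 ± 0.41 (SD, n = 3 each), by 0.74 (SE 0.29, 95% interval 0.06 to 1.42), and did not pass over the 50 hairpins with both arms tested (limma adjusted p = 0.0871), of which 30% had an arm difference that passed. Without DSS heart 13 the value was 0.98 (limma adjusted p = 0.0360). Without normalization the distances were 4.12, 4.16 and 3.61 in control and 3.77, 4.10 and 4.29 in DSS hearts. Those groups overlapped, and the difference was 0.09 (limma adjusted p = 0.812), a value shared by every setting that only scales whole arrays.

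**Figure D3:**
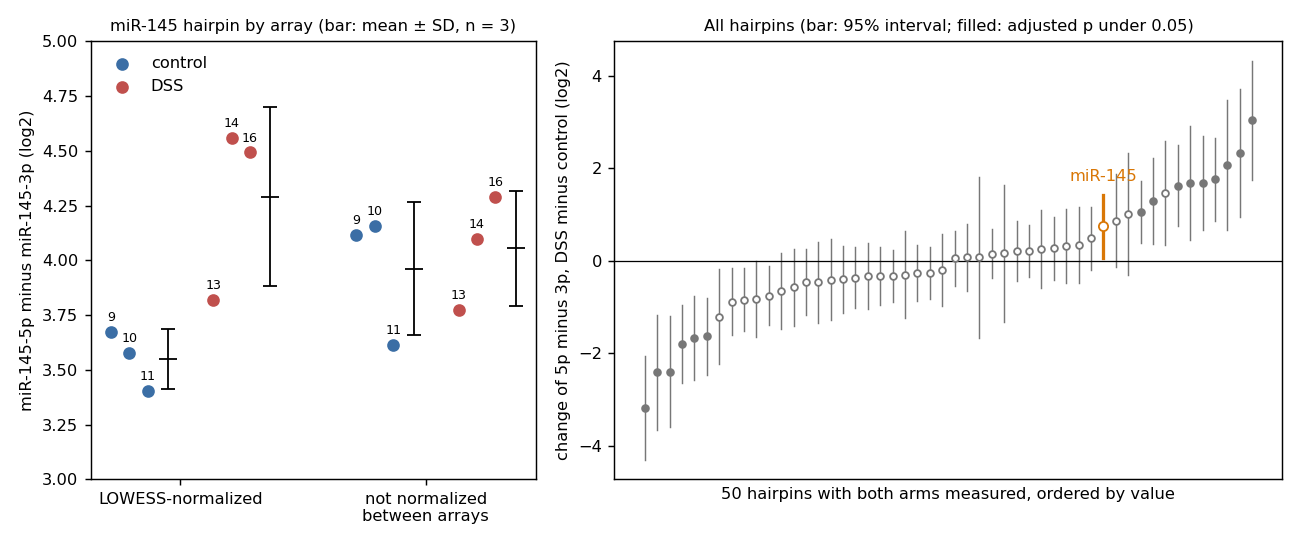
Left, log2 signal of miR-145-5p minus miR-145-3p on each array with and without LOWESS normalization (bars, mean ± SD, n = 3); right, the change of the same arm difference for 50 hairpins after LOWESS with 95% intervals, filled where the adjusted p was under 0.05. The widening of 0.74 for miR-145 is open and the left groups overlap without normalization.

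Seen by hairpin, miR-145 was among 9 of the 50 whose 5p and 3p arms both passed in the lower direction, with miR-140, miR-199a, miR-28, miR-29a, miR-29c, miR-3068, miR-322 and miR-324. Some of these had an arm that was faint in DSS hearts. miR-29a-5p was detected on 3 arrays, with a DSS mean of 6.13. Detection was on 4 arrays for miR-140-5p (DSS mean 6.21), miR-29c-5p (6.48), miR-3068-3p (6.39), miR-3068-5p (6.60) and miR-324-5p (6.53). The differences of these arms give no exact fold. Both miR-145 arms were detected on all 6 arrays. In 4 hairpins both arms passed in the higher direction, in 1 the arms passed in opposite directions, in 24 only 1 arm passed and in 12 neither did. miR-143 had a single tested arm and was not among the 50.

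The 3 tested members differed in which other miRNAs followed them most closely over the 6 arrays. Pearson's r over normalized log2 values is given as a description, since the arrays share the group difference and the normalization. These miRNAs were picked by likeness to members that separate the groups, so their direction and tests add no support. Over all tested miRNAs, 28.4% passed in the lower direction. miR-145-5p was most like miR-1949 (r = 0.990), miR-3585-5p (0.990) and miR-186-5p (0.981). All 3 of these passed in the lower direction, at -1.05, -1.71 and -1.20 (limma adjusted p = 0.0170, 0.0163 and 0.0161). miR-1949 was detected in 2 control hearts and 1 DSS heart, and miR-3585-5p in 3 and 1, so both entered the test mainly through the control group and their DSS means of 6.20 and 6.32 lay at the level of undetected probes. Those nearest to miR-145-3p were miR-100-5p (r = 0.993), miR-99a-5p (0.993) and miR-324-5p (0.991), which also passed, at -1.87, -2.29 and -0.69 (limma adjusted p = 0.0151, 0.0151 and 0.0213). miR-324-5p was detected in 3 control hearts and 1 DSS heart. miR-100 and miR-99a share a family and target mTOR.

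For miR-143-3p the nearest were miR-17-5p (r = 0.992), a member of the proliferation-linked miR-17-92 cluster, miR-24-3p (0.974) and miR-101a-3p (0.965). Their differences were -0.65, -0.55 and -2.04, and only miR-101a-3p passed (limma adjusted p = 0.0803, 0.0960 and 0.0248), with detection in 3 control and 2 DSS hearts. With each group's mean taken off, the 9 correlations ranged from 0.876 to 0.989. As the 9 were picked by their r on these same arrays, that range is a description and no separate check. Under spike-in scaling the differences of miR-1949, miR-324-5p, miR-17-5p and miR-24-3p turned to 0.29, 0.75, 0.68 and 0.03. Among the members, miR-145-5p had an r of 0.946 with its own hairpin's 3p arm and 0.946 with miR-143-3p. Once group means were removed the first was 0.602 and the second 0.887; the difference between them was not tested.

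Other miRNAs known to act in smooth muscle were set beside the cluster. Of 14 on a list of such regulators, 12 were tested, of which 2 passed in the higher direction, 4 in the lower direction and 6 did not pass, counts close to the shares of 20.9% and 28.4% over all tested miRNAs. Their median difference was -0.53, against -0.06 over all tested miRNAs. miR-31a-5p was detected on 1 array and miR-204-5p on 2, so neither was tested. The list was drawn up with earlier results of these data known, and its miR-1-3p and miR-133a-3p are also abundant in heart muscle cells.

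**Figure D4:**
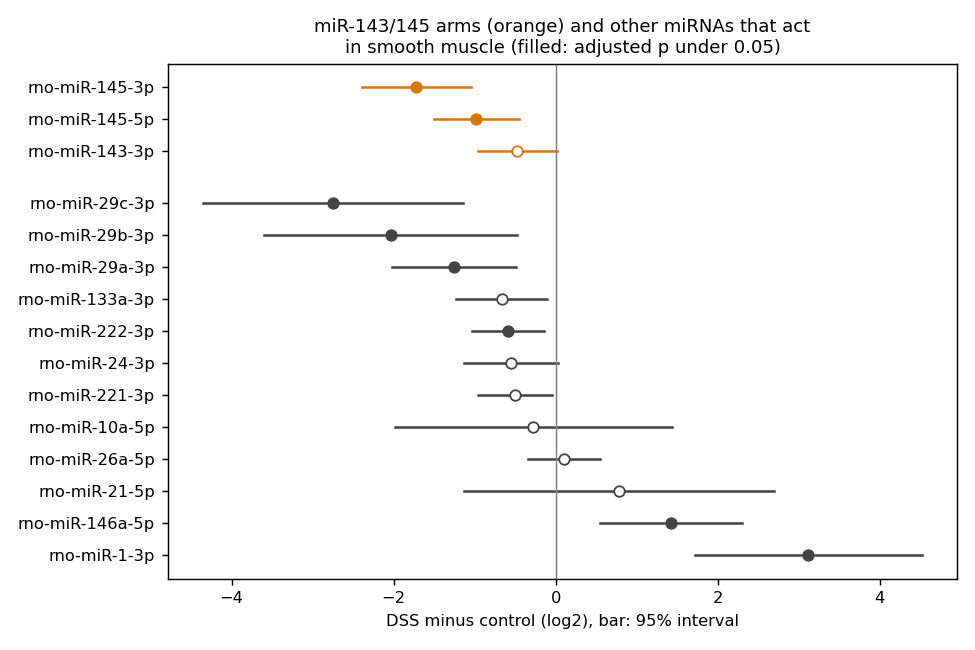
Difference between DSS and control hearts (log2, with 95% interval) for the tested miR-143 and miR-145 arms, in orange, and the 12 tested miRNAs of the smooth-muscle list; filled points have an adjusted p under 0.05. The list runs from -2.74 for miR-29c-3p to 3.11 for miR-1-3p, with the miR-145 arms in its lower part.

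The miR-29 family, which targets collagens and elastin, held the lowest values of that list. miR-29c-3p fell by 2.74 (SE 0.67, limma adjusted p = 0.0197), miR-29b-3p by 2.04 (0.0393), with overlapping groups and detection on 5 arrays, and miR-29a-3p by 1.26 (0.0213). miR-221-3p and miR-222-3p, which promote smooth muscle proliferation and come from a common cluster, had differences of -0.50 (adjusted p = 0.0669) and -0.59 (0.0372). Only miR-222-3p of that pair passed, and both turned positive under spike-in scaling (0.71 and 0.79) and 5S scaling (0.19 and 0.26). miR-24-3p, at -0.55, is given above.

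Among the rest, miR-1-3p, an abundant muscle miRNA and a repressor of muscle precursor proliferation, rose by 3.11 on the array (SE 0.59, limma adjusted p = 0.0151). The paper's own RT-qPCR, a separate PCR measurement in cardiac tissue, found no significant change of miR-1-3p. miR-146a-5p, a brake on inflammatory signalling, rose by 1.42 (0.0213). miR-133a-3p, which restrains the smooth muscle gene program in heart muscle cells, differed by -0.67 (adjusted p = 0.0527). Neither miR-21-5p, at 0.78 (0.427), nor miR-10a-5p, at -0.28 (0.771), nor miR-26a-5p, at 0.10 (0.664), passed. The intervals of miR-21-5p (-1.13 to 2.69) and miR-10a-5p (-1.99 to 1.44) were wide, since control hearts alone spread by an SD of 1.69 and 1.19. miR-26a-5p, with an interval of -0.34 to 0.55, was the most tightly measured of them.

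Of the marker lists for other cell types, the endothelial one had lower DSS means, and the rest held miRNAs passing in both directions. For all tested miRNAs together, 28.4% passed in the lower direction and 20.9% in the higher one. The part of these cell types in the result was not tested. Each list is given by its members that passed and by its summed linear normalized signal, which holds the offset of every probe. Of the endothelial miRNAs, which are the 2 arms of 1 hairpin, 1 of 2 passed in the lower direction. That was miR-126a-3p at -1.28 (limma adjusted p = 0.0229), while miR-126a-5p, detected in 3 control hearts and 1 DSS heart, differed by -1.21 (0.237). A list of 2 is too small to be set apart from the share over all tested miRNAs. The endothelial sum was 12259 to 20280 in control and 4694 to 10308 in DSS hearts, without overlap. This sum mostly restates miR-126a-3p, whose control mean was 13.89 (log2), against 8.52 for miR-126a-5p. Under spike-in scaling 0 of the 2 passed in the lower direction.

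Of the fibroblast miRNAs, miR-199a-3p fell by 0.75 and miR-199a-5p changed by -1.58, while miR-214-3p rose by 1.12 (limma adjusted p = 0.0331, 0.0151 and 0.0224). miR-214-5p was detected in 3 of 3 DSS and 0 of 3 control hearts. It entered the test only through the DSS group, so its test gives no support. Its DSS level was at least 1.18-fold higher, against the lowest detected signal of each control array or its own where higher. The fibroblast sum was 4896 to 5007 in control and 3571 to 4644 in DSS hearts, without overlap and lower in DSS hearts. It was led by miR-199a-3p, with a control mean of 11.76 (log2), against 9.55 for miR-214-3p, the next brightest. The median difference of the fibroblast list was -0.10, against -0.06 over all tested miRNAs. Of the 6 heart muscle miRNAs, 4 were tested. On the array miR-1-3p rose, with the PCR result given above, and miR-499-5p fell by 2.09 (limma adjusted p = 0.0213). The heart muscle sum was 41556 to 64817 in control and 38959 to 94832 in DSS hearts.

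Of 4 erythroid miRNAs, miR-486 rose by 2.36 and miR-451-5p and miR-144-5p fell by 2.53 and 0.94 (limma adjusted p = 0.0151, 0.0161 and 0.0224), while miR-144-3p was detected on 0 arrays. miR-144-5p was detected in 2 control hearts and 1 DSS heart, so it entered the test mainly through the control group. Its mean of 6.13 in DSS hearts was at the level of undetected probes, so its difference gives no exact fold. The erythroid sum was 3078 to 6392 in control and 4033 to 5841 in DSS hearts. Of 4 leukocyte miRNAs, miR-150-5p rose by 1.59 and miR-223-3p fell by 1.35 (0.0201 and 0.0299), while miR-142-3p and miR-142-5p were detected on 1 array each. miR-223-3p was detected in 3 control and 2 DSS hearts. The leukocyte sum was 2241 to 4876 in control and 8513 to 9959 in DSS hearts, without overlap and in the direction of miR-150-5p.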

How the data were processed

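Total RNA from 6 rat hearts was poly(A)-tailed, tagged and hybridised by a service provider to a single-colour (Cy5) array with 4 spots for each of 761 miRNAs. The deposited files hold the spot intensity (median brightness) of each array, not normalized, and a table of the intensity values the authors processed by background subtraction and LOWESS normalization. Samples were grouped by the treatment label. Nothing in the labels ties animals across groups, and the files gave no slide or scan, so batches could not be checked.

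From the spot intensities, normexp background correction (offset 50), the mean log2 of 4 spots and cyclic LOWESS (span 0.7, 3 iterations) were computed in R 4.3.3 with limma 3.58.1. Background was the median brightness of the darkest 25% of miRNA spots. A spot counted where it exceeded background by 3 empty-spot SDs with a pixel coefficient of variation under 0.5, and 2 such spots of 4 made a probe detected. The filter kept the 282 miRNAs with detection on 3 or more arrays of the 6, which were fitted with lmFit and eBayes and adjusted by Benjamini-Hochberg. Arm differences were tested over 50 hairpins, and pairs of members by exact permutation. The code was tested on simulated data.

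The miRNAs named were the members, the tested smooth-muscle list, the 3 most correlated with each tested member, and markers of other cell types. Members and lists were chosen with earlier results of these data known. Alternatives covered background, normalization, filter, detection limit, spot summary, test and each array left out.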

Additional observations from a re-analysis of the deposited data

How the results depend on the processing

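Both miR-145 arms kept their direction in 26 of 26 alternatives (-1.70 to -0.38 for miR-145-5p, -2.53 to -0.47 for miR-145-3p) and passed in 22. Alternatives of filter, detection limit and test, apart from array weights, leave the difference itself unchanged by construction. Only the adjusted p could move in those. They missed the threshold under spike-in scaling (-0.38, adjusted p = 0.333, and -0.47, 0.274), 5S rRNA scaling (-0.91 and -0.998), the methods' t-test (-0.98 and -1.72, 0.0608 each) and without DSS heart 16, and 0 members passed there. Leaving out 1 heart gave -1.14 to -0.79 for miR-145-5p, -1.96 to -1.55 for miR-145-3p, -0.56 to -0.30 for miR-143-3p, 0.61 to 0.98 for the arm difference, and 0 to 2 members passing. miR-143-3p passed under quantile normalization (-0.95, 0.00909) and under scaling to the 75th percentile of miRNAs detected on all arrays (-0.94, 0.0494) or of all probes (-1.13, 0.0167), and turned to 0.19 under spike-in scaling. The arm difference passed with an offset of 16 (1.25), the authors' processed values (1.56) and array weights (0.85, a fit that stopped before convergence). The cause was not tested.

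Over the array 139 miRNAs passed, against 74 with no filter, 0 by the methods' t-test (155 at its unadjusted p under 0.05, 165 by limma), 84 without control heart 9, 69 without DSS heart 14 and 0 without DSS heart 16 (129 unadjusted), in a range of 0 to 142 with 1 heart left out. The split of higher and lower was 59 and 80 as reported, 81 and 38 without normalization and 168 and 10 under spike-in scaling. Of the smooth-muscle list, 1 rose with no filter and 0 by the t-test, and the number that fell was 1 under spike-in scaling, 2 under 5S scaling, 1 with no filter, 2 with detection on all 6 arrays and 0 by the t-test; leaving out 1 heart gave 0 to 2 and 0 to 4.

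Directions turned for miR-26a-5p under plain subtraction (-0.12), no normalization (-0.41), quantile (-0.16) and both percentile scalings (-0.59 and -0.78). Under spike-in scaling they turned for miR-221-3p (0.71), miR-222-3p (0.79), miR-24-3p (0.029), miR-10a-5p (0.92), miR-17-5p (0.68), miR-324-5p (0.75) and miR-1949 (0.29). Under 5S scaling they turned for miR-221-3p (0.19), miR-222-3p (0.26), miR-10a-5p (0.39), miR-17-5p (0.15) and miR-324-5p (0.22). With 1 heart left out they turned for miR-21-5p (-0.19 in a range to 1.36), miR-10a-5p (-0.96 to 0.21) and miR-26a-5p (-0.0055 to 0.23). No paired analysis was possible because no animal number occurs in both groups. A slide or scan block was not run, as neither is in the files.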
